A study of Mus musculus with 29 samples.

Results

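Intermittent fasting on chow was examined in the hippocampus by comparing 3 libraries of fasted mice with 4 libraries of mice fed freely, 7 of the 29 libraries analysed here. The libraries were chosen by the tissue and regimen in their column names. All mice were male C57BL/6J made obese by 10 weeks of high-fat diet, and the following 4 weeks set the groups. CC mice ate control chow ad libitum, and CC-IF mice ate control chow with intermittent fasting. HFD mice stayed on high-fat diet ad libitum, and HFD-IF mice ate it with fasting every other day. The 4 HFD and 4 HFD-IF hippocampi entered the estimate of spread and a test of whether fasting differed between diets. The CC controls were therefore formerly obese mice switched to chow, and no never-obese mice were among the groups. The fasting schedule on chow, the time since the last meal and the hour of collection were not given in the labels used here. Messenger RNA was selected by its poly(A) tail and sequenced from both ends. Values are FPKM, which set a gene's fragments against the length of its transcript and the depth of the library.

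Several gene systems known to respond to feeding and body temperature are active in the hippocampus. In the circadian clock, the activators CLOCK and BMAL1 (gene Arntl) bind E-box sequences and switch on their own repressors, the Per, Cry and Nr1d genes, along with output genes such as Dbp. Cirbp and Rbm3 encode RNA-binding proteins that accumulate when cells cool. Chaperones of the endoplasmic reticulum and the cytosol fold new proteins and are induced through their own promoter elements when folding demand rises.

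The 24346 genes of the table gave 12710 tested genes with a mean of at least 1 FPKM over the 7 libraries, after 79 small RNA names were left out. Libraries held 17244 to 18057 genes above 0, at an estimated depth of 11.4 to 34.3 M (mega) fragments. All 15 listed genes of CA pyramidal neurons and all 12 of dentate granule neurons passed the expression filter, and their summed FPKM ranged from 431 to 474 and from 165 to 201 over the 7 libraries. Rn45s, the precursor of ribosomal RNA, was above 0 in CC-IF library 0 (19437 FPKM), CC-IF library 2 (18860) and CC library 2 (28984), and listed at 0 in the other 4, where an exact 0 may be a failed estimate. The upper quartile of FPKM over tested genes was 17.3 to 17.8 in the 3 libraries with Rn45s and 18.8 to 19.0 in the 4 without it. The choroid plexus list summed to 1132 FPKM in CC-IF library 2 and 1893 in CC library 2, against 47.7 to 139 in the other 5, most of it from Ttr. Libraries are named by the index in their column.

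**Figure D1:**
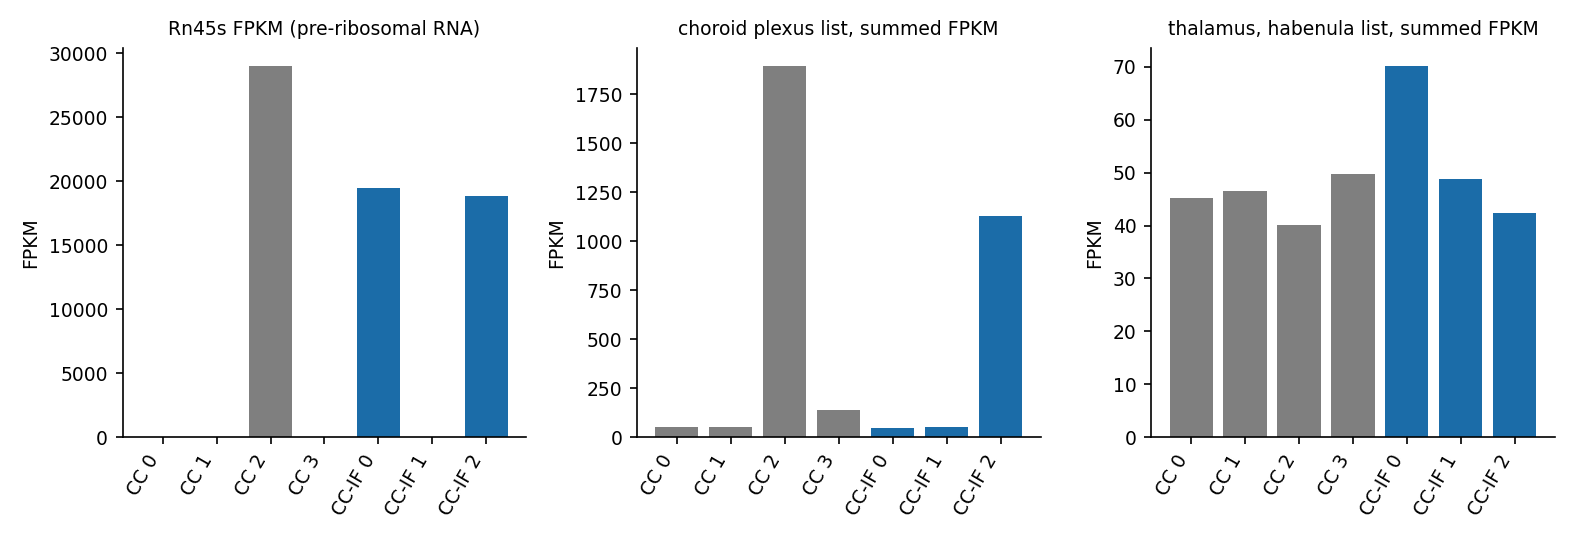
Bars give FPKM in the 4 CC (grey) and 3 CC-IF (blue) hippocampal libraries for Rn45s, for the summed choroid plexus list and for the summed thalamus and habenula list, each on its own linear axis. Rn45s was high in 1 CC and 2 CC-IF libraries, choroid plexus genes in CC library 2 and CC-IF library 2, and the thalamus and habenula genes reached 70.1 in CC-IF library 0.

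Fasting on chow raised 3 genes past the threshold, and 0 genes fell. Cirbp, the cold-inducible RNA-binding protein, Dbp, a transcription factor of clock output, and Etnppl, an enzyme that degrades phosphoethanolamine and is known from astrocytes, were each higher in all 3 CC-IF libraries than in all 4 CC libraries. The rise was 0.78 to 0.94 on the log2 scale. limma, with Benjamini-Hochberg adjustment over the 12710 genes at 0.05, called 0.0236% of genes. At an unadjusted p under 0.05 there were 332 genes higher (2.61%) and 471 lower (3.71%), 6.32% in all. The groups did not overlap in 9.06% of genes, with CC-IF above CC in 4.04% and below in 5.02%. Over all tested genes 44% were higher and 56% lower in CC-IF, with a median log2 change of -0.02. When each library was centred on its median, 48.6% were lower, and the share of higher genes among those at an unadjusted p under 0.05 went from 41.3% to 52.9%.

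Cirbp (chromosome 10, 80165985 to 80172786, plus strand, GRCm38) was at 55.7, 56.3 and 47.6 FPKM in CC-IF libraries 0 to 2 and at 27.4, 28.5, 25.9 and 27.1 FPKM in CC libraries 0 to 3. Every fasted library was well above every control, and the controls lay close together. The means were 53.2 ± 4.84 and 27.2 ± 1.09 FPKM (SD, n = 3 and 4), a log2 change of 0.94 ± 0.14 (SE, limma adjusted p = 0.0219). Its relative Rbm3 (chromosome X, 8138975 to 8145880, minus strand) was at 71.8, 72.1 and 68.7 FPKM in CC-IF and at 37.2, 35.9, 31.9 and 26.2 FPKM in CC. The groups were again separate, with the wider spread among the controls. Rbm3 had the largest log2 change among the genes at an unadjusted p under 0.05 whose groups did not overlap, predicted genes left out, at 1.10 ± 0.19, but did not pass (limma adjusted p = 0.0639). It passed with libraries centred on their medians.

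Dbp (chromosome 7, 45705088 to 45710203, plus strand) binds D-box sequences and carries the clock's rhythm to other genes. It was at 21.9, 19.5 and 17.8 FPKM in CC-IF and at 11.6, 9.57, 11.6 and 11.4 FPKM in CC. All fasted libraries were above all controls, and CC library 1 was the lowest of the 7. Dbp rose by 0.78 ± 0.10 on the log2 scale and had the smallest p of all genes (limma adjusted p = 0.00768). Etnppl (chromosome 3, 130617448 to 130637521, plus strand) was at 6.99, 6.71 and 5.31 FPKM in CC-IF and at 3.20, 2.91, 2.85 and 2.89 FPKM in CC. The lowest fasted library was above the highest control. Etnppl rose by 0.88 ± 0.14 (limma adjusted p = 0.0491), just inside the threshold. In the fit over both hippocampus and liver, where 9803 genes were tested and the spread was estimated from both tissues, all 3 lost their calls. Their hippocampal adjusted p was there 0.9995 for Dbp, 0.223 for Cirbp and 0.285 for Etnppl, while Rbm3 passed at 0.0344 (limma).

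The size of these changes held across libraries more than the calls did. Leaving out each library in turn, the log2 change stayed between 0.89 and 1.01 for Cirbp, 0.71 and 0.85 for Dbp and 0.82 and 0.99 for Etnppl. Cirbp and Etnppl lost their calls without any 1 of the 7 libraries, and Dbp lost its call without CC-IF library 0 (limma adjusted p = 0.134) or CC-IF library 1 (0.0582). Without the 3 libraries in which Rn45s was above 0, 1 CC-IF and 3 CC libraries remained and 0 genes were called, and unadjusted p-values under 0.05 were found for 85 higher and 108 lower genes. The lone fasted library was then assumed to vary like the other groups, and the log2 changes were 1.00 for Cirbp, 0.79 for Dbp and 0.95 for Etnppl. Without CC library 2 and CC-IF library 2, where Ttr was above 900 FPKM, Dbp alone was called, and the log2 changes of Cirbp and Etnppl were 0.99 and 0.97.

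**Figure D2:**
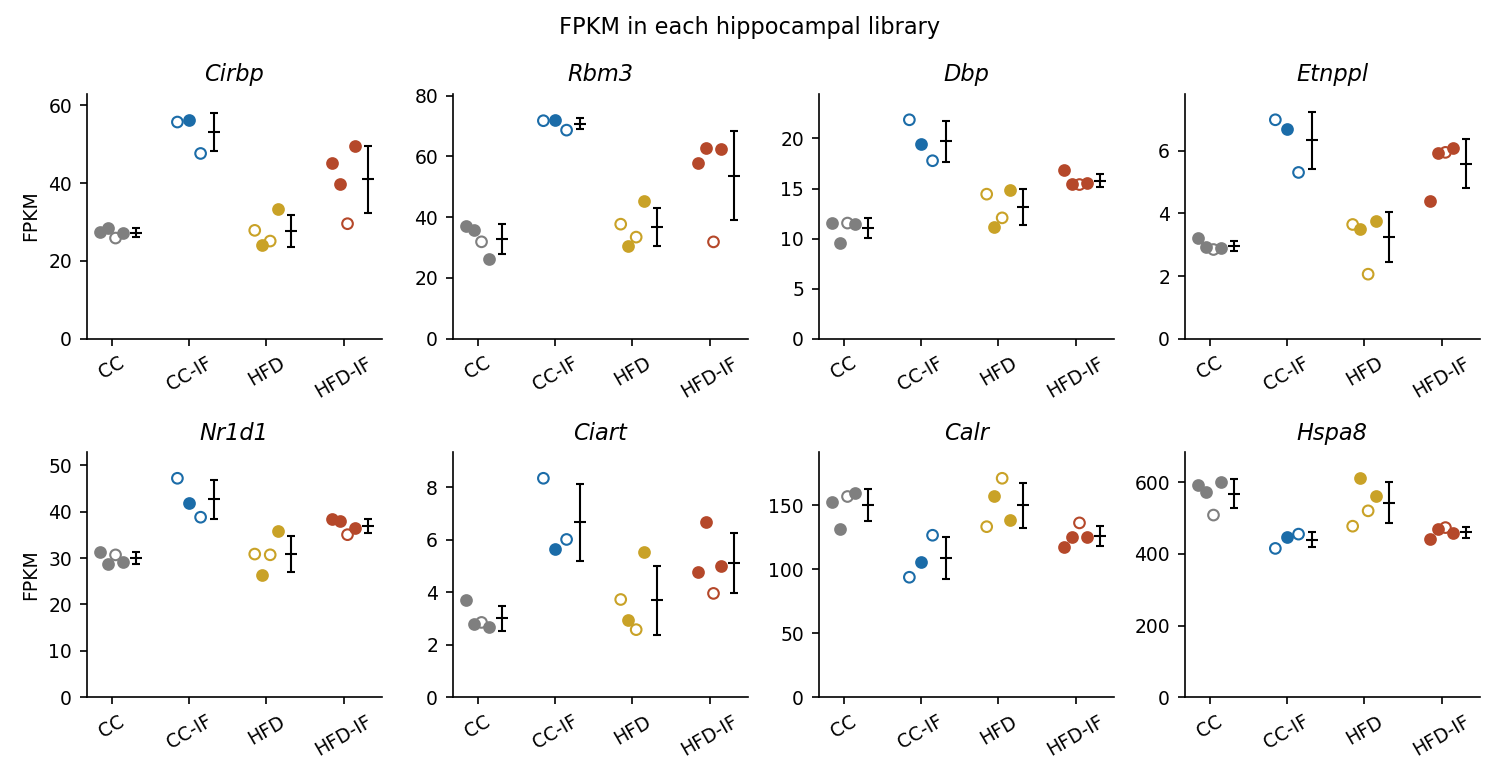
Each point is the FPKM of a gene in 1 hippocampal library of the 4 regimens, hollow where Rn45s was above 0, with the mean and SD beside it. Cirbp, Rbm3, Dbp, Etnppl, Nr1d1 and Ciart were higher in every CC-IF than in every CC library, and Calr and Hspa8 were lower in every CC-IF library, although of these genes Cirbp, Dbp and Etnppl alone passed the adjusted threshold.

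All 10 measured genes of the clock's repressive limb had a log2 change above 0 in CC-IF, where 44% of all tested genes did. Their median was 0.23 against -0.02 over all genes, 6 of the 10 had an unadjusted p under 0.05, and 0 passed the adjusted threshold. Nr1d1, the receptor REV-ERB alpha that shuts off Arntl, was at 47.2, 41.9 and 38.8 FPKM in CC-IF and at 31.4, 28.8, 30.7 and 29.2 FPKM in CC. The groups were separate, and the log2 change was 0.49 ± 0.09 (limma adjusted p = 0.0872). Ciart, a repressor of CLOCK and BMAL1, was at 8.34, 5.65 and 6.01 FPKM in CC-IF and at 3.70, 2.81, 2.85 and 2.67 FPKM in CC. Here CC-IF library 0 was highest and CC library 0 was the highest control, below all fasted libraries (log2 change 0.93 ± 0.19, limma adjusted p = 0.160). Per1 and Cry2, both repressors of CLOCK and BMAL1, had log2 changes of 0.29 and 0.20 with groups that did not overlap. Bhlhe41 (0.31), Nr1d2 (0.26), Cry1 (0.21), Per3 (0.13), Per2 (0.07) and Bhlhe40 (0.03) had groups that overlapped.

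The activating limb and the clock's output genes were mixed. Of 10 measured activators and output genes, 6 had a log2 change above 0 and 4 below. Dbp was the called member, and Usp2, a rhythmic deubiquitinase, was at 21.2, 19.9 and 20.6 FPKM in CC-IF and at 17.2, 17.0, 15.5 and 17.6 FPKM in CC, without overlap. Arntl, the BMAL1 gene, had a log2 change of -0.27 and Nfil3, a repressor that competes with Dbp for its sites, of -0.33 (limma adjusted p = 0.568 and 0.517). Both had groups that overlapped. The other output factors of the Dbp family, Tef and Hlf, had log2 changes of 0.02 and 0.16.

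The promoters of Ciart and Per1 are shown because the clock's activators bind E-boxes and these windows hold them. Among the repressors Ciart had the second smallest p and Per1 the fifth, and Nr1d1 and Cry2, with smaller p than Per1, had windows without these letters. Bhlhe41, also with a smaller p than Per1, had the E-box and is not shown. Each window runs from 250 bases before to 50 bases after the start of the gene, 5′ to 3′ on the gene's strand, from RefSeq on GRCm38.p6, with the E-box CACGTG in capitals. Ciart lies at chr3:95882179-95882478 on the minus strand and Per1 at chr11:69098699-69098998 on the plus strand.
Ciart: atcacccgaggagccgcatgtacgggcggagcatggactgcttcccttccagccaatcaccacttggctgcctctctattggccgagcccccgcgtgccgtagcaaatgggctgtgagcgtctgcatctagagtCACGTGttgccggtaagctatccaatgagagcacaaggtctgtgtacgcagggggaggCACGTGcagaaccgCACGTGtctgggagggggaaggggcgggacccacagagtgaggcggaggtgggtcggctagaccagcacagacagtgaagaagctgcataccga
Per1: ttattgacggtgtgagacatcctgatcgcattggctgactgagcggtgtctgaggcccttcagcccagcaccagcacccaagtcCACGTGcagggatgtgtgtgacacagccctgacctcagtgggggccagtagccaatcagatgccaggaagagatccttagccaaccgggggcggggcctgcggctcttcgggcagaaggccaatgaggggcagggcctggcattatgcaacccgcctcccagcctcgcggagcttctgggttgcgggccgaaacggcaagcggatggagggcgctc
Ciart held 3 matches, the closest of them 44 bases before the start, and Per1 held 1, at 166 bases before the start. Per1 has 2 windows, and the E-box was in 1 of them, the one shown. Of all 32851 promoter windows 7.15% held the 6 letters, which read the same on both strands. Of the 27025 genes with windows, 8.09% had at least 1 that held it. Among the 8 clock repressors with a window 4 held it (Per1, Cry1, Ciart and Bhlhe41), and among the 10 activators and output genes 1 did (Tef). The 4 repressors with the E-box had a median log2 change of 0.30, and the 4 without it 0.23. In each set 3 had an unadjusted p under 0.05. Tef was at 0.02, and the 9 activators and output genes without the E-box had a median of 0.15. A match describes the letters in the window and not binding.

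Most genes of protein folding in the endoplasmic reticulum had lower values in the fasted mice. Of 20 measured, 17 had a log2 change below 0, where 56% of all genes did, and 11 an unadjusted p under 0.05, where 3.71% of all genes were lower at that level, and 0 passed the adjusted threshold. The median was -0.29. Calr, the calcium-binding lectin chaperone calreticulin, was at 93.7, 106 and 127 FPKM in CC-IF and at 153, 132, 157 and 159 FPKM in CC. The groups were separate, though CC-IF library 2 and CC library 1 came within a few FPKM (log2 change -0.47 ± 0.11, limma adjusted p = 0.234). Hsp90b1, the HSP90 of the endoplasmic reticulum, was at 51.1, 63.2 and 67.1 FPKM in CC-IF and at 87.9, 80.5, 78.8 and 94.2 FPKM in CC, without overlap (-0.50 ± 0.12, adjusted p = 0.264). Pdia3, a disulfide isomerase that works with calreticulin, was also separate between groups, at -0.40 ± 0.10. CC-IF library 0 had the lowest value of the 7 for each of these 3 genes.

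The master chaperone of the compartment, Hspa5 (BiP), showed more spread. It was at 37.3, 51.6 and 71.5 FPKM in CC-IF and at 83.9, 59.1, 81.1 and 87.9 FPKM in CC, so CC-IF library 2 was above CC library 1 (log2 change -0.57 ± 0.20, limma unadjusted p = 0.0102). The isomerase Pdia6 also overlapped between CC-IF library 2 and CC library 1, at 18.0, 19.5 and 25.3 FPKM in CC-IF and at 32.1, 24.4, 35.8 and 36.0 FPKM in CC. Pdia4, Hyou1, Manf, Creld2 and Dnajb11 had log2 changes of -0.42, -0.28, -0.40, -0.43 and -0.24, each with an unadjusted p under 0.05. In all 5 CC-IF library 2 was the highest fasted library and CC library 1 the lowest control, so that their groups overlapped. Xbp1, a transcription factor of the unfolded protein response, had a log2 change of -0.31.

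The promoters of Calr, Hsp90b1 and Hspa5 are shown for the element through which such chaperones are known to be induced, the ER stress response element (CCAAT and CCACG parted by any 9 bases), in capitals on whichever strand it was found. The windows are as above, at chr8:84846882-84847181 (minus strand), chr10:86705395-86705694 (minus) and chr2:34771840-34772139 (plus).
Calr: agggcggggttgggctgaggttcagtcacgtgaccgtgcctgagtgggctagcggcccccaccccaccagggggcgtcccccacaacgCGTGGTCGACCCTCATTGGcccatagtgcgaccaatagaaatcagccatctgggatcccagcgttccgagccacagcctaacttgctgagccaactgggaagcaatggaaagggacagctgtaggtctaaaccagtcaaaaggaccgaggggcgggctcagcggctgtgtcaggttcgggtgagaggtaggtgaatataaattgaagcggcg
Hsp90b1: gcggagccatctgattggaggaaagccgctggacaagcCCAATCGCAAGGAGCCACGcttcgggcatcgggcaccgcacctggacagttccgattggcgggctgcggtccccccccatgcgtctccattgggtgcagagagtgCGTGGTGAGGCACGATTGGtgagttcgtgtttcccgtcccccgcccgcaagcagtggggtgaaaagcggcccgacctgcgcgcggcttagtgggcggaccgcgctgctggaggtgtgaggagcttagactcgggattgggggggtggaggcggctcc
Hspa5: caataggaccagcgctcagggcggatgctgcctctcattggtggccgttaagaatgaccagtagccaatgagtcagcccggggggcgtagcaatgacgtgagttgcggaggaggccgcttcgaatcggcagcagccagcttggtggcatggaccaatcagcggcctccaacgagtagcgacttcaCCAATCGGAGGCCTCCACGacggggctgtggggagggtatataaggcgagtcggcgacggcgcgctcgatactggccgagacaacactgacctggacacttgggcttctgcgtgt
Hsp90b1 held 2 matches and the others 1 each. The element, searched on both strands, was in 0.119% of all windows and in a window of 0.137% of all genes. It was in 7 of the 17 folding genes with a window. The 7 with it had a median log2 change of -0.47, all below 0, and the 10 without it had a median of -0.20. This is a description of the members and was not tested.

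Most cytosolic chaperones had lower values as well. Of 19 measured, 17 had a log2 change below 0, where 56% of all genes did, and 5 an unadjusted p under 0.05, where 3.71% of all genes were lower. The median was -0.16, and 0 passed the adjusted threshold. Hspa8, the constitutive HSP70, was at 415, 448 and 455 FPKM in CC-IF and at 592, 572, 508 and 599 FPKM in CC. The groups were separate (log2 change -0.37 ± 0.09, limma adjusted p = 0.299). Chordc1, a co-chaperone of HSP90, was at 13.5, 18.0 and 18.5 FPKM in CC-IF and at 27.5, 22.4, 20.6 and 23.96 FPKM in CC. Its groups did not overlap, nor did those of the HSP110 gene Hsph1 (-0.43 ± 0.12) and the HSP90 activator Ahsa1 (-0.26). The list's median was -0.07 without CC-IF library 0, -0.26 without CC-IF library 2, and -0.29 without both libraries high in Ttr.

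The promoter of Chordc1 is shown for the heat shock element, here GAA, TTC and GAA with any 2 bases after each of the first blocks, on either strand and in capitals (chr9:18292017-18292316, plus strand, window as above).
Chordc1: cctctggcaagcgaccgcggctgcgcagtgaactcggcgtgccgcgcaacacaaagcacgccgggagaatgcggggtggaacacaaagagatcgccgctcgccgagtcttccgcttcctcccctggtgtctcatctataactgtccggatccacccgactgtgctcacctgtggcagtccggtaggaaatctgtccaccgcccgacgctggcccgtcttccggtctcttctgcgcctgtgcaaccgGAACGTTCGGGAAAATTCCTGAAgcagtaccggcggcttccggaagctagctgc
It held 3 overlapping matches around the start of the gene. The element was in 0.603% of all windows and in a window of 0.662% of all genes. It was in 4 of the 14 cytosolic chaperones with a window, Hsph1, Hspd1, Hspe1 and Chordc1. Of these, Hspd1 and Hspe1 are neighbours that share a promoter region. Their median was -0.29, against -0.13 for the 10 without it.

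**Figure D3:**
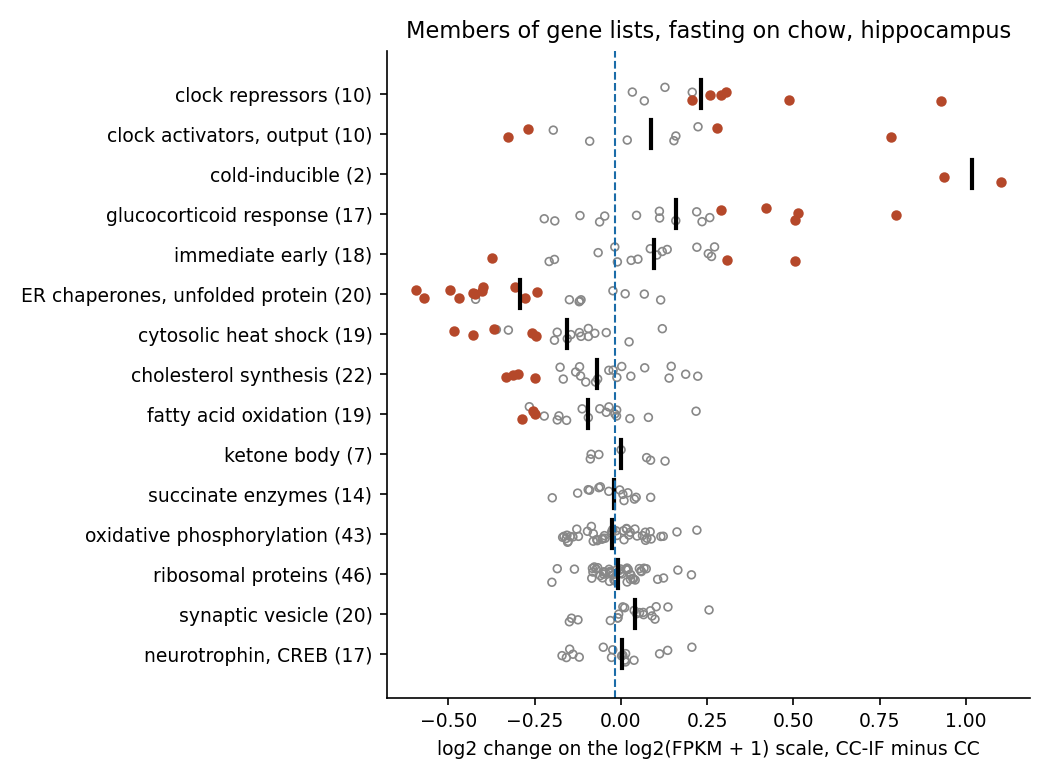
Each point is a member's log2 change in CC-IF against CC, filled red where the unadjusted limma p is under 0.05, with the list's median as a black bar, the median over all genes as a dashed line and the number of members tested in brackets. The clock repressors lie above 0 and most chaperones below it, while succinate enzymes, oxidative phosphorylation, ribosomal proteins and synaptic vesicle genes have 0 filled points.

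Glucocorticoids are adrenal hormones that rise with fasting. Most genes on a list of glucocorticoid-induced genes and receptors had higher values in the fasted mice, and 0 passed the adjusted threshold. Of 17 measured, 12 had a log2 change above 0, where 44% of all genes did, and the median was 0.16. An unadjusted p under 0.05 was found for 5 of the 12, where 2.61% of all genes were higher at that level. Plin4, a lipid droplet coat protein, was at 4.08, 4.21 and 5.096 FPKM in CC-IF and at 1.97, 1.79, 2.03 and 2.85 FPKM in CC, without overlap (0.80 ± 0.16, limma adjusted p = 0.160). Mt1, a metal-binding metallothionein, was at 308, 310 and 359 FPKM in CC-IF and at 206, 199, 260 and 252 FPKM in CC, also without overlap (0.51 ± 0.13, adjusted p = 0.317). The phosphatase Dusp1 was at 16.9, 13.1 and 10.0 FPKM in CC-IF and at 8.15, 10.8, 8.16 and 8.74 FPKM in CC, so that 1 fasted library lay within the controls. The sulfotransferase Sult1a1 was at 4.84, 4.66 and 4.68 FPKM in CC-IF and at 3.48, 2.69, 3.23 and 3.81 FPKM in CC (0.42 ± 0.18, unadjusted p = 0.0303), without overlap. The clock repressor Per1 is also a member of this list and the fifth at an unadjusted p under 0.05, and its groups were separate, as were those of Ddit4, an inhibitor of mTORC1 signalling (0.22, unadjusted p = 0.121). The receptor co-chaperone Fkbp5, the kinase Sgk1 and Tsc22d3 had log2 changes of 0.11, 0.26 and 0.16 with overlapping groups, and Pdk4 and Cdkn1a were at -0.22 and -0.12.

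Among genes of neuronal activity and synapses 0 passed the adjusted threshold. Of 18 immediate early genes, 12 had a log2 change above 0, where 44% of all genes did. At an unadjusted p under 0.05, 2 were higher (Dusp1, and Fos at 0.31), where 2.61% of all genes were. Homer1 was lower at -0.37. Arc, Egr1 and Npas4 had log2 changes of 0.12, 0.10 and 0.09. Bdnf, the growth factor often studied in fasting, was at 9.48, 10.7 and 10.1 FPKM in CC-IF and at 13.2, 12.8, 9.21 and 10.1 FPKM in CC, with overlapping groups (-0.14 ± 0.16). Its receptor Ntrk2 was at -0.05 ± 0.07. In the list of neurotrophin and CREB genes 9 were above 0 and 8 below, and neither that list nor the 20 synaptic vesicle genes had a member whose unadjusted p was under 0.05. Of 23 glutamate receptor and scaffold genes, 7 had a log2 change above 0 and 16 below, where 56% of all genes were below. The median was -0.04, with 1 higher and 1 lower at an unadjusted p under 0.05. Grin1, the obligatory NMDA receptor subunit, was at 136, 125 and 127 FPKM in CC-IF. In CC it was at 115, 114, 112 and 109 FPKM (0.20), without overlap. Gabra2, a subunit of the GABA-A receptor, was at 10.8, 12.6 and 12.3 FPKM in CC-IF and at 19.0, 17.5, 12.7 and 18.3 FPKM in CC (-0.46), where CC library 2 came close to the fasted values. Dcx, a marker of newborn neurons, had a log2 change of 0.07.

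Succinate, named in the study's title, is made and used in the citric acid cycle. Of 14 enzymes that make or use it, 6 had a log2 change above 0 and 8 below, with 0 at an unadjusted p under 0.05 and a median of -0.02. The subunits of succinate dehydrogenase, Sdha, Sdhb, Sdhc and Sdhd, had log2 changes of 0.01, 0.04, -0.20 and 0.04, with standard errors of 0.08 to 0.09. The receptor Sucnr1 was listed at 0 in all 7 libraries. Among carriers, the citrate and dicarboxylate transporter Slc13a5 was at 1.26, 1.49 and 1.15 FPKM in CC-IF and at 0.817, 0.776, 0.629 and 0.982 FPKM in CC (0.35 ± 0.10), and Slc13a3 was at -0.31 with overlapping groups (limma adjusted p = 0.406 and 0.703). The mitochondrial carrier Slc25a10 had a log2 change of 0.17.

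Other energy genes showed small differences. Among 43 nuclear genes of oxidative phosphorylation and 46 ribosomal protein genes 0 had an unadjusted p under 0.05. Over all genes 56% had a log2 change below 0, and at an unadjusted p under 0.05 the lower share was 3.71%. Among the 19 genes of fatty acid oxidation or targets of the receptor PPAR alpha, 16 had a log2 change below 0. With each library centred on its median 13 did, where 48.6% of all genes did. An unadjusted p under 0.05 was found for 3: Hadha and Hadhb, the subunits of the trifunctional protein (-0.25 and -0.29), and Plin2 (-0.25). In cholesterol synthesis 15 of 22 were below 0, and 14 with each library centred on its median. Dhcr7, Idi1, Nsdhl and Msmo1 were at an unadjusted p under 0.05 (-0.25, -0.33, -0.30 and -0.31). The ketone body genes Bdh1, Oxct1 and Slc16a1 had log2 changes of 0.13, -0.06 and 0.00. Gsr, which regenerates reduced glutathione, was at 10.6, 9.77 and 11.0 FPKM in CC-IF and at 7.32, 8.09, 7.03 and 8.46 FPKM in CC (0.40 ± 0.08, limma adjusted p = 0.194), without overlap.

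**Figure D4:**
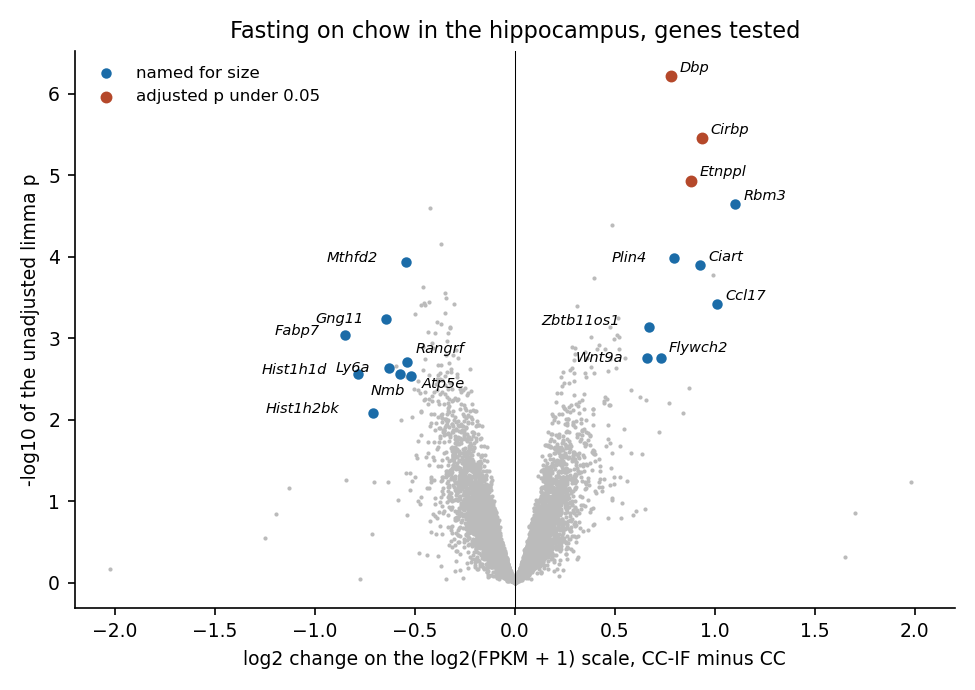
Each point is 1 of the 12710 tested genes, with the log2 change in CC-IF against CC on the x axis and -log10 of the unadjusted limma p on the y axis, and named genes coloured. Dbp, Cirbp and Etnppl passed the adjusted threshold, and 2 genes outside the axis, Rn45s and Scarna3a (log2 changes of 5.78 and -5.47), had unadjusted p = 0.254 and 0.293.

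The other genes with the largest separate changes were of mixed kinds, and none passed the adjusted threshold (limma adjusted p = 0.160 to 0.539). Ccl17, a chemokine, was at 1.52, 2.14 and 2.27 FPKM in CC-IF and at 0.636, 0.249, 0.898 and 0.187 FPKM in CC (1.01 ± 0.23). Flywch2, Zbtb11os1 and Wnt9a had log2 changes of 0.73, 0.67 and 0.66. Zbtb11os1 is antisense to a coding gene, and whether counting used the strand is not given in the sources used here. Fabp7, the fatty acid binding protein of astrocytes and neural progenitors, was at 5.23, 7.87 and 8.46 FPKM in CC-IF and at 11.8, 16.6, 12.6 and 13.4 FPKM in CC (-0.85 ± 0.21). Mthfd2, a mitochondrial enzyme of folate metabolism, was at 1.88, 1.57 and 1.43 FPKM in CC-IF and at 3.03, 3.34, 2.60 and 2.38 FPKM in CC (-0.55 ± 0.11). All 3 genes had groups that did not overlap. Gng11, Ly6a, Nmb, Rangrf and Atp5e had log2 changes of -0.64, -0.63, -0.58, -0.54 and -0.52. Hist1h1d and Hist1h2bk were at -0.78 and -0.71, and belong to a family of near-identical histone genes whose reads may be split between copies.

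Most markers of microglia and endothelium had lower values in the fasted mice, while 0 markers of any glial or vascular list passed the adjusted threshold. Of all tested genes 56% were below 0, and 3.71% were lower at an unadjusted p under 0.05. In bulk tissue, fewer cells of a type and less RNA per cell cannot be told apart. The 13 tested microglial genes had 11 members below 0, a median log2 change of -0.17 and a summed FPKM of 140 to 153 in CC-IF and 161 to 177 in CC, which did not overlap. Tmem119, C1qc and C1qb had an unadjusted p under 0.05 (-0.32, -0.20 and -0.30). Endothelial genes (10 of 13 below 0, summed FPKM 51.7 to 56.7 against 57.6 to 64.3) also separated. Oligodendrocyte genes (13 of 15 below 0, 1428 to 1891 against 1425 to 2101) and their precursors' genes (9 of 10, 132 to 149 against 144 to 171) overlapped in their sums. The median of the oligodendrocyte list, -0.10, changed sign with the settings (-0.27 to 0.12, below 0 in 10 of 13). The endothelial, oligodendrocyte and precursor lists each had 2 members lower at an unadjusted p under 0.05. With each library centred on its median, 48.6% of all genes were below 0. The counts below 0 were then 11 of 15 oligodendrocyte and 7 of 10 precursor genes. Those of microglia and endothelium stayed at 11 and 10. Astrocyte genes were split, 5 above and 8 below, with Fgfr3 at 0.29 and Aqp4 at -0.30.

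Tissue next to the hippocampus also differed between libraries. Of 11 thalamus and habenula genes 10 were above 0, where 44% of all genes were. The list's summed FPKM was 70.1, 48.8 and 42.3 in CC-IF and 40.0 to 49.8 in CC. CC-IF library 0 stood above the rest, with Prkcd at 11.2 FPKM against 4.69 to 6.12 in the other 6 libraries. The same library was highest for Dbp, Etnppl, Nr1d1 and Ciart and lowest for Calr, Hsp90b1, Pdia3, Hspa5 and Hspa8. Without it the log2 changes of Cirbp, Dbp and Etnppl were 0.90, 0.71 and 0.82. All 12 choroid plexus genes were below 0, where 56% of all genes were, with 0 at an unadjusted p under 0.05. CC library 2 and CC-IF library 2 were the highest for each of the 12, so these signs are not independent. Tmem72, at 4.32 and 2.44 FPKM there and 0.02 to 0.17 elsewhere, passed the expression filter only through them. So did Folr1, Kcne2, F5 and Prlr, at up to 0.55, 0.57, 0.46 and 0.59 FPKM elsewhere. Outside these libraries Otx2, Clic6 and Sostdc1 were above 1 FPKM in CC library 3 alone. The part of dissection in the other gene changes was not tested.

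Fasting on high-fat diet served as a comparison that shares no libraries with the one on chow. It called 0 genes in limma, while 940 (7.4%) had an unadjusted p under 0.05, 617 of them higher (4.85%) and 323 lower (2.54%). Ttr was at 1744, 33.5, 1372 and 1246 FPKM in HFD libraries 0 to 3. In HFD-IF libraries 0 to 3 it was at 320, 28.8, 7.48 and 17.0 FPKM. Rn45s was above 0 in HFD libraries 0 and 2 and HFD-IF library 2. At an unadjusted limma p under 0.05, all 12 choroid plexus genes (median -1.49) and 8 of 10 meningeal genes (-0.51) were lower in HFD-IF. The part of this imbalance in the other changes was not tested. Cirbp was at 45.1, 39.8, 29.6 and 49.5 FPKM in HFD-IF libraries 0 to 3 and at 27.8, 24.1, 25.1 and 33.3 FPKM in HFD. Rbm3 was at 57.8, 62.8, 31.9 and 62.3 FPKM in HFD-IF and at 37.7, 30.7, 33.5 and 45.2 FPKM in HFD. For both genes HFD-IF library 2, the fasted library of this diet in which Rn45s was above 0, lay among the controls and the other 3 above them. Dbp was at 16.8, 15.5, 15.4 and 15.5 FPKM in HFD-IF and at 14.4, 11.2, 12.1 and 14.8 FPKM in HFD, and Etnppl at 4.41, 5.92, 5.95 and 6.08 against 3.65, 3.50, 2.06 and 3.75 FPKM. Neither overlapped.

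The log2 changes on high-fat diet were 0.54 ± 0.13 for Cirbp, 0.50 ± 0.18 for Rbm3, 0.26 ± 0.09 for Dbp and 0.65 ± 0.13 for Etnppl (limma adjusted p = 0.372, 0.605, 0.615 and 0.206). Each was smaller than on chow, but these genes were picked by their change on chow, a choice that by itself favours smaller changes elsewhere. The test of the difference between diets called 0 genes, while 424 (3.34%) had an unadjusted p under 0.05, 116 with a higher change on chow (0.913%) and 308 with a lower one (2.42%). For Dbp the unadjusted p of the difference was 0.00137, for Rbm3 0.0329, for Cirbp 0.0501 and for Etnppl 0.251 (limma adjusted p = 0.985 in each). Of the 20 genes chosen for their call or size, 17 had the same sign on both diets, and Ly6a, Mthfd2 and Rangrf did not. The 3 genes with the smallest p for the difference were Ptgds, Airn and Mthfd2. Ptgds, a prostaglandin synthase of meninges and choroid plexus, had log2 changes of 0.25 on chow and -0.84 on high-fat diet, Airn of -0.51 and 0.65, and Mthfd2 of -0.55 and 0.15 (limma adjusted p = 0.915, 0.915 and 0.977). The choroid plexus and meningeal lists had medians of -1.49 and -0.51 on high-fat diet, against -0.13 and -0.02 on chow. The part of dissection in the Ptgds difference was not tested.

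**Figure D5:**
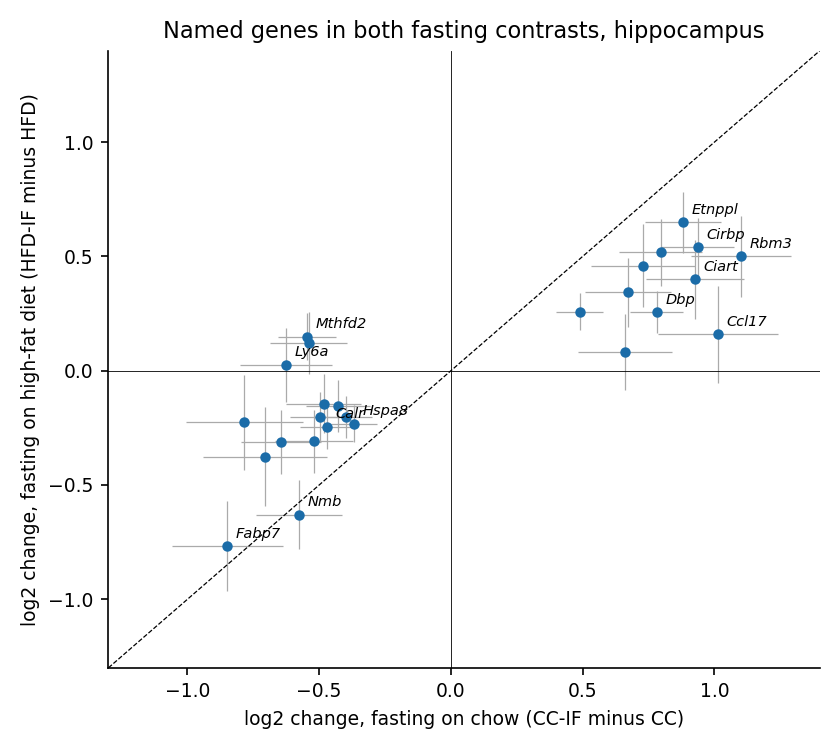
Each point is a gene named for its call or size, or 1 of 7 clock and chaperone genes (Nr1d1, Calr, Hsp90b1, Pdia3, Hspa8, Hsph1 and Chordc1), with its log2 change for fasting on chow on the x axis and on high-fat diet on the y axis, SE as grey bars and the line of equal change dashed. Of the genes plotted, those higher on chow lie between 0 and the dashed line, closer to 0 on high-fat diet. Mthfd2, Ly6a and Rangrf lie on the other side of 0, and Nmb was lower on high-fat diet (-0.63) than on chow (-0.58). The genes were picked by their change on chow, and that choice by itself favours smaller changes on high-fat diet.

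The signs were also shared beyond the named genes. Of the 332 genes higher on chow at an unadjusted p under 0.05, 281 (84.6%) were also higher on high-fat diet, where 65.7% of all genes were. Of the 471 lower on chow, 322 (68.4%) were also lower on high-fat diet, where 34.3% of all genes were. The 10 clock repressors were all above 0 there too (median 0.17), and 18 of 19 cytosolic chaperones (-0.09) and 15 of 20 folding genes of the endoplasmic reticulum (-0.13) were below 0. Oligodendrocyte genes went the other way, 14 of 15 above 0 with a median of 0.19.

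The liver of mice on the same regimens gave many more calls. Among 9803 genes tested in both tissues, 31.7% were called for fasting on chow in liver, and 14% differed in their response between liver and hippocampus. Rbm3 was at 56.3 ± 3.43 FPKM in fasted livers and 21.8 ± 3.43 in controls, and Cirbp at 17.1 ± 3.74 and 11.7 ± 3.08 (SD, n = 4 and 4). The difference between tissues was 0.24 for Rbm3, -0.42 for Cirbp and 0.35 for Etnppl, and did not pass (limma adjusted p = 0.601, 0.359 and 0.444). Dbp, in contrast, was at 50.6 ± 12.03 FPKM in fasted livers and 3.31 ± 4.87 in controls, a log2 change larger than the hippocampal one by 3.40 (limma adjusted p = 0.0110). Calr changed by -2.05 in liver, a difference of -1.58 (limma adjusted p = 1.97e-05). Hspa8 had a log2 change of 0.36 in liver, opposite in sign to the hippocampus (difference 0.73, limma adjusted p = 0.0417). In that fit neither change passed by itself (limma adjusted p = 0.0930 in liver and 0.9995 in hippocampus).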

How the data were processed

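RNA was taken from about 20 mg of tissue, and stranded poly(A) libraries from 1 µg of RNA were read as pairs of 125 nt, per the labels' protocols. The series design calls the samples biological replicates. The authors deposited 1 table of FPKM. Per the submitters' processing notes reads were handled with TopHat2 2.1.1, Bowtie2 2.3.5.1, Trimmomatic 0.39 and FastQC 0.11.9 on GRCm38 (mm10). The program that computed FPKM is not given in the sources used here. Columns were tied to groups by name, and 0 were left without a group.

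Depth was estimated from the spacing of low values and is approximate, since 55.3% to 71.8% of them came within 0.2 of a whole number of fragments and 40% would by chance. Within groups, 9 pairs of libraries had r of 0.975 to 0.988 and at least 99.98% of values differed.

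Values were log2(FPKM + 1), which understates changes of low genes. limma 3.58.1 in R 4.3.3 fitted group alone to the 15 hippocampal libraries, with an intensity trend and two-sided Benjamini-Hochberg adjusted p-values at 0.05. Tables and plots were made in Python 3.11.15 with numpy 2.4.6, pandas 2.3.3 and matplotlib 3.10.9. The procedure was checked on simulated data. A second fit over 29 libraries of both tissues treated libraries as independent. Errors are SE for log2 changes and SD for FPKM.

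Genes were named if called, if among the 10 highest or 10 lowest log2 changes at an unadjusted p under 0.05 without overlap (predicted genes left out), if among the 3 smallest p under 0.05 of a list, if among the 3 smallest p of the difference between diets, or if fixed by name. An item that the rule names is not reported here. Others in the text were chosen after their values were seen. The 48 gene lists, the comparison and the genes fixed by name were chosen with earlier results of these data known. Transcripts of the mitochondrial genome were not analysed here. Coordinates are from GENCODE M21. Alternatives covered the pseudocount, the expression filter, scaling, the libraries in the fit, their weights, the trend, Rn45s and each library left out.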

Additional observations from a re-analysis of the deposited data

Results flagged for a closer look

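Among the CC hippocampi, 1 library stood far from the other 3 in 5 of 113 items examined, where chance marks about 1 group in 20. Dbp was lowest in CC library 1 at 9.57 FPKM, against 11.4 to 11.6 in the others. Atp5e was highest in CC library 0 at 133 FPKM, against 126 to 127. CC library 2 was highest for Ttr at 1615 FPKM and for the summed choroid plexus list at 1893 FPKM, and lowest for the summed astrocyte list at 852 FPKM, against 971 to 994.

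The response to fasting on chow differed between liver and hippocampus in 9 of 25 named genes examined (limma over both tissues, adjusted p under 0.05). Across all 9803 genes tested in both tissues 14% did. The 25 genes were picked by their hippocampal change, which is a term of this difference. Their share can therefore not be weighed against that of all genes. The liver minus hippocampus difference in log2 change was 4.05 for Usp2, 3.40 for Dbp, 2.25 for Ciart and 1.07 for Cry2, all clock genes. It was 0.73 for Hspa8 and 0.68 for Atp5e. Among chaperones of the endoplasmic reticulum it was -1.58 for Calr, -1.08 for Hsp90b1 and -0.99 for Pdia3.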

How the results depend on the processing

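The count of 3 called genes was 2 or 3 with the other pseudocounts, filters and moderation, and 4 with centred libraries or TMM factors. It was 6 with the CC-IF and CC libraries alone in the fit, 6 with Rn45s as a term and 95 (29 higher, 66 lower) with array weights. It was 1 without both libraries with Ttr above 900 FPKM and 0 without the 3 libraries with Rn45s above 0; both of these settings were chosen after seeing the data. Leaving out each library in turn gave 0 to 1. With all genes above 0 tested, Dbp alone of the 3 was shared, and the difference between diets called 2 genes against 0 otherwise. The cause was not tested. With Rn45s as a term the higher share at an unadjusted p under 0.05 was 68.7%, against 41.3%.

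Over 20 settings the log2 change ranged from 0.85 to 1.03 for Cirbp, 0.62 to 0.87 for Dbp, 1.00 to 1.21 for Rbm3 and, over 19, 0.51 to 1.06 for Etnppl. Of the 98 genes chosen by the rule 85 kept their sign in all settings run for them, and 25 of 45 lists kept the sign of their median, among them the clock repressors (0.17 to 0.28), the endoplasmic reticulum list (-0.38 to -0.22) and the cytosolic chaperones (-0.29 to -0.07). The 3 fasted libraries limit precision. No paired analysis was possible because each regimen had its own mice and columns carry an index that ties them to a group and not to a numbered sample.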
